A study of Mus musculus with 10 samples.

Results

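Lipocalin 2 and its cell-surface receptors were examined in the hypothalamus of mice carrying a colon tumour. The group holds 3 of the 18820 genes named on the array: Lcn2, which encodes lipocalin 2, Slc22a17, which encodes the lipocalin 2 receptor, and Lrp2, which encodes megalin. Each had 1 probe set paired with that gene alone, so no choice between probe sets was needed. Lcn2 was chosen by its log2 difference between these same groups, and its values in that contrast are therefore given as a description with no test. The receptor genes were picked for binding lipocalin 2, and their differences were tested.

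The tumour-bearing group held 5 male CDF1 mice, a cross of BALB/c and DBA/2, that had received 1000000 C26 adenocarcinoma cells under the skin of the flank in 0.2 ml of salt solution. Controls were 3 male CDF1 mice sham-injected with the same volume without cells. All were 10 to 11 weeks old by their labels, and the hypothalamus was taken on day 20. Each mouse had its own array; 1 further array held RNA pooled from 5 tumour-bearing mice and 1 held RNA pooled from 4 controls. Whether a pool shares animals with the single arrays is not labelled, so both pools are set beside the mice and enter no main test. Each single array is 1 mouse, so the spread is between animals. The C26 tumour is a transplanted mouse colon carcinoma that is widely used as a model of cancer cachexia.

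Values are log2 levels made by RMA, the authors' array summary, and a difference of 1 is a doubling on that scale. Medians of the individual arrays were 5.30 to 5.32, and those of the tumour-bearing and control pools were 5.28 and 5.27. A probe set was tested if 3 or more of the 8 single-mouse arrays exceeded 4.32, which is a linear level of 20. Of 22837 tested probe sets, 13 were higher in tumour-bearing mice (0.0569% of those tested) and 0 were lower (0.0%) at a limma adjusted p under 0.05; at an unadjusted p under 0.05, 1075 were higher (4.71%) and 1328 lower (5.82%). Without tumour-bearing mice 3 and 4, described next, 0 were called. With 1 mouse left out the count was 10 without control 1 and 2 without control 2 or 3. It was 4 to 6 without tumour-bearing mouse 1, 3, 4 or 5, and 69 without tumour-bearing mouse 2. The tissue carried its defining transcripts: all 11 of the measured hypothalamic marker genes, of 13 listed, were above the filter. Tumour-bearing mice 3 and 4 also carried the pituitary hormone transcript Gh, growth hormone, at 10.45 and 10.48, against 4.76 to 5.51 in the other tumour-bearing mice and 4.21 to 4.45 in controls, and Prl, prolactin, at 7.40 and 7.52.

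Lipocalin 2 is a small secreted protein that binds bacterial and mammalian siderophores, the molecules that carry iron, and so withholds iron from microbes. It is an acute-phase protein of the liver, is stored in neutrophil granules, and in the inflamed brain is made by astrocytes, endothelium and choroid plexus. Slc22a17 encodes a membrane protein that takes up lipocalin 2 with or without iron. Megalin is a very large endocytic receptor of the LDL receptor family, best known from the kidney tubule and from epithelia such as ependyma and choroid plexus. In mice, lipocalin 2 made by bone has also been described to act on the melanocortin 4 receptor in the hypothalamus and to lower food intake.

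The sequences just before the annotated transcription starts are shown so that the ligand gene, whose level lay apart between the groups, can be read beside the receptor genes, which were not called. They are RefSeq sequences of GRCm38.p6, the 250 bases before each start on the minus strand, at chr2:32387740-32387989 for Lcn2, chr14:54913133-54913382 for Slc22a17 and chr2:69586030-69586279 for Lrp2. No build is named for the array, and these positions belong to the reference and not to its probes. Capitals mark matches to any of the motifs searched.
Lcn2: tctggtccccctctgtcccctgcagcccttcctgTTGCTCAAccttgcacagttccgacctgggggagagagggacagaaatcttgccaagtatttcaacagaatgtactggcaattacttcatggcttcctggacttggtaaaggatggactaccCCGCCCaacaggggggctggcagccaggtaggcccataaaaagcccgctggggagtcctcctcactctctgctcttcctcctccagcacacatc
Slc22a17: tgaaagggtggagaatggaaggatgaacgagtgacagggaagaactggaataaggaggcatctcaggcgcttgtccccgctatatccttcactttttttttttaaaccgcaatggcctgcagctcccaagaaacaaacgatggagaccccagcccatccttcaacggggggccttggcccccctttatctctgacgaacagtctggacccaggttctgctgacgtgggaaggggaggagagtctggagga
Lrp2: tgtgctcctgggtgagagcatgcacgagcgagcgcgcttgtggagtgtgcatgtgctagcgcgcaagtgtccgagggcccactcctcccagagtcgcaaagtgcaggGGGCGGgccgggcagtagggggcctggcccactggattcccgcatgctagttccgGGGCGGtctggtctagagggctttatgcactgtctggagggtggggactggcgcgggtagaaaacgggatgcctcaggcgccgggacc

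Both strands were searched for TTCNNNGAA, the element bound by STAT proteins, TTNCNNAA, an element of C/EBP proteins, TATAAA, the GC box GGGCGG, the glucocorticoid response element, and the kappa-B element. The Lcn2 window held 1 C/EBP match, TTGCTCAA, from 216 to 209 bases before the start, and 1 GC box on the opposite strand, from 94 to 89 bases before it. The Lrp2 window held 2 GC boxes and the Slc22a17 window no match. Among 32851 promoter windows of the same length, 36.8% held the C/EBP letters, 32.7% the GC box, 7.02% the STAT letters, 7.25% the kappa-B element, 12.4% TATAAA and 0.00913% the glucocorticoid element. The windows also differed in CpG count, with 3 in Lcn2, 8 in Slc22a17 and 18 in Lrp2, against a median of 6 over all windows. The matches did not overlap each other.

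Lcn2 was far higher in the hypothalamus of every tumour-bearing mouse than in any control. Its log2 level was 7.25, 6.40, 7.51, 7.48 and 6.94 in tumour-bearing mice 1 to 5, against 4.33, 3.77 and 4.10 in controls 1 to 3. The groups did not overlap, and the lowest tumour-bearing mouse lay 2.07 above the highest control. The mean was 7.12 ± 0.46 (SD, n = 5) in tumour-bearing mice and 4.07 ± 0.28 (SD, n = 3) in controls, a difference of 3.05 on the log2 scale. This difference is the one for which the gene was chosen.

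On the linear scale the tumour-bearing mice spanned 84.4 to 182, a range of 2.16-fold within the group, and the controls spanned 13.6 to 20.1, a range of 1.48-fold. Controls 2 and 3 lay under the filter level, so the size of the fold is uncertain: it was 8.28-fold on the deposited scale and at least 6.92-fold when each array below the level was set to it. Lcn2 passed the filter through the tumour-bearing group, with 1 of 3 controls above the level.

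The pooled arrays stood in the same order as the mice. Lcn2 was 7.15 in the tumour-bearing pool and 4.49 in the control pool, a 6.32-fold ratio with no replicate. The tumour-bearing pool lay inside the range of the single tumour-bearing mice; its linear level, 142, was close to their linear mean, 144. The control pool lay 0.16 above the highest single control. From the top, the order over all 10 arrays was tumour-bearing mice 3, 4 and 1, the tumour-bearing pool, mice 5 and 2, then the control pool and controls 1, 3 and 2. Within the groups, only the steps between mice 5 and 2 and between controls 3 and 2 exceeded the SD of their own group.

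**Figure D1:**
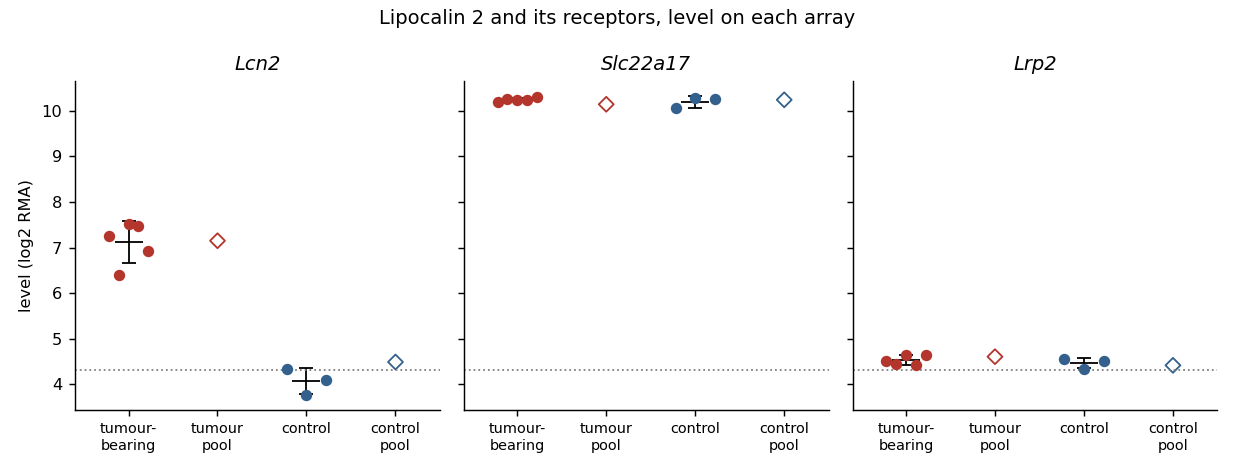
Log2 RMA level of Lcn2, Slc22a17 and Lrp2 on each array; filled points are single mice, open diamonds the pools, bars the group mean and SD (n = 5 tumour-bearing, n = 3 control), and the dotted line the filter level of 4.32. Lcn2 is at 6.40 to 7.51 in tumour-bearing mice and at 3.77 to 4.33 in controls, while both receptor genes overlap between groups.

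Slc22a17, the lipocalin 2 receptor gene, did not pass the test. Its log2 level was 10.20, 10.25, 10.25, 10.23 and 10.29 in tumour-bearing mice 1 to 5, against 10.05, 10.28 and 10.26 in controls 1 to 3. The groups overlapped, and control 1 was the lowest array of all 10. The mean was 10.24 ± 0.03 (SD, n = 5) in tumour-bearing mice and 10.20 ± 0.13 (SD, n = 3) in controls. The difference was 0.05 ± 0.05 SE (limma adjusted p = 0.821), with a 95% interval from -0.07 to 0.16, or 0.951-fold to 1.12-fold. Without control 1 the difference was -0.03, so its direction rests on that mouse. The pools ran the other way, at 10.14 in the tumour-bearing pool and 10.24 in the control pool.

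Lrp2, the megalin gene, was barely above the filter level on every individual array and did not pass the test either. Its log2 level was 4.50, 4.45, 4.64, 4.43 and 4.64 in tumour-bearing mice 1 to 5, against 4.56, 4.34 and 4.51 in controls 1 to 3. The groups overlapped, and the lowest individual array lay 0.02 above the filter level. The difference was 0.06 ± 0.12 SE (limma adjusted p = 0.899), with a 95% interval from -0.21 to 0.33, or 0.868-fold to 1.26-fold; it was -1.31e-05 without control 2 and 0.11 without control 1. The pools were at 4.61 in the tumour-bearing pool and 4.42 in the control pool. From the top, the order was tumour-bearing mice 5 and 3, the tumour-bearing pool, controls 1 and 3, tumour-bearing mice 1, 2 and 4, the control pool and control 2, with tumour-bearing and control arrays mixed.

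In bulk tissue, more cells of a type and more transcript per cell cannot be told apart for any of these genes. The receptor levels were set against markers of brain cell types in 4 relations over the 8 individual arrays. Slc22a17 went with the mean level of 6 neuron markers, with Pearson r = 0.765 (exact permutation p = 0.0296, adjusted p = 0.118) and Spearman rho = 0.571 (exact permutation p = 0.151, adjusted p = 0.598). That relation did not pass the adjustment and rests on the outlying arrays: r was 0.374 without the 2 arrays farthest from the marker median (exact permutation p = 0.472), and 0.768 for deviations from the group means.

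The other relations did not pass either. Slc22a17 and oligodendrocyte markers gave r = -0.333 (exact permutation p = 0.484, adjusted p = 0.646; rho = -0.0952, exact permutation p = 0.840, adjusted p = 0.977; r = -0.0570 without the 2 farthest arrays). Lrp2 and ependymal markers gave r = 0.639 (exact permutation p = 0.0862, adjusted p = 0.172; rho = 0.429, exact permutation p = 0.299, adjusted p = 0.598), and r = 0.684 without the 2 farthest arrays. Lrp2 and choroid plexus markers gave r = 0.0963 (exact permutation p = 0.812, adjusted p = 0.812; rho = -0.0238, exact permutation p = 0.977, adjusted p = 0.977), and r = -0.622 without the 2 farthest arrays.

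Named tested genes were also ranked by how closely their 8 values followed each member, as a description over arrays that share the group difference. Nearest to Lcn2 were Cdk9, Serpina3n, Vsig2, Ythdc1 and Mfsd2a, with Pearson coefficients of 0.978 to 0.968; for deviations from the group means the coefficients were 0.438 to 0.667. Nearest to Slc22a17 were B4galt5, Zfp362, Rogdi, 1700030K09Rik and Rgl3, at 0.981 to 0.970. Nearest to Lrp2 were Pank3, Smarce1, Parp16, Zfp560 and Xrcc6, at 0.962 to 0.915. These genes were picked as the highest among 12978, so the coefficients support no test.

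Of the 4 genes that flank Lcn2 most closely on chromosome 2 in RefSeq, 0 were called by limma. 1110008P14Rik and Ciz1 on one side differed by -0.24 ± 0.08 SE and 0.01 ± 0.06 SE (limma adjusted p = 0.373 and 0.982). Ptges2 and Slc25a25 on the other differed by -0.08 ± 0.08 SE and -0.06 ± 0.06 SE (limma adjusted p = 0.771 and 0.806). The groups overlapped for all 4.

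Around the ligand and its receptors, 77 tested genes from 10 lists were examined: partners of lipocalin 2 and of megalin, their ligands and families, iron handling, inducing signals and acute-phase genes. Of these, 2 were called higher and 0 lower by limma, against 0.0569% of all tested probe sets called higher. At an unadjusted p under 0.05, 11 were higher and 9 lower, against 4.71% and 5.82% of all tested probe sets. Every tumour-bearing mouse exceeded every control for 11 of the 77 (14.3%, against 3.28% of all tested probe sets) and was below every control for 9 (11.7%, against 4.17%). The lists were drawn up with earlier results of these data known, so these shares are not independent evidence. Their median difference was 0.02, against -0.00314 over all tested probe sets.

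**Figure D2:**
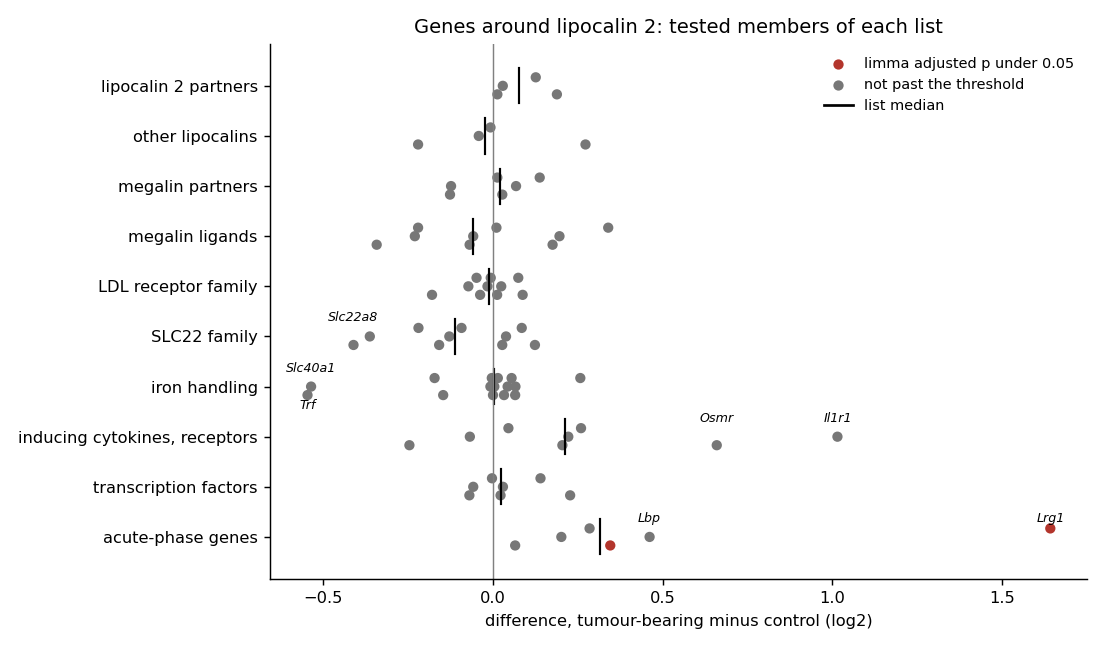
Difference between tumour-bearing and control mice (log2 RMA, 5 against 3 arrays) for each tested gene of the 10 lists, 1 point per gene, with the list median as a bar; red points passed a limma adjusted p of 0.05. Lrg1 at 1.64 and Serpina3n at 0.35 are the called genes, and apart from acute-phase genes, at 0.32, the list medians lie between -0.11 and 0.21.

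The 4 partners of lipocalin 2 had differences of 0.01 to 0.19; 0 were called by limma and 0 had an unadjusted p under 0.05. Mc4r, the melanocortin 4 receptor gene, was 6.68, 6.72, 6.94, 6.88 and 7.10 in tumour-bearing mice 1 to 5, against 6.73, 6.69 and 6.60 in controls. The groups overlapped, and the difference was 0.19 ± 0.10 SE (limma adjusted p = 0.532, 95% interval -0.03 to 0.41). Mmp9, the matrix metalloproteinase that forms a complex with lipocalin 2, differed by 0.03 ± 0.17 SE (limma adjusted p = 0.974). Bdh2, whose product makes the mammalian siderophore, differed by 0.13 ± 0.11 SE and Bcl2l11, the pro-apoptotic gene linked to lipocalin 2 uptake, by 0.01 ± 0.11 SE.

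None of the other lipocalins was called. Of 20 measured, 4 passed the filter, and by limma 0 were called. Limma gave 1 higher and 1 lower at an unadjusted p under 0.05, against 4.71% and 5.82% of all tested probe sets. The 16 others, Orm1, Orm2, Lcn3 and Lcn12 among them, lay under the level on all 8 individual arrays. Apod, apolipoprotein D, had the largest difference of the 4: it was 10.69, 10.50, 10.44, 10.61 and 10.74 in tumour-bearing mice, against 10.43, 10.23 and 10.31 in controls. All 5 tumour-bearing mice lay above the single controls, by 0.27 ± 0.07 SE on average (limma adjusted p = 0.277). The control pool, at 10.52, lay inside their range, and the tumour-bearing pool was at 10.80. Ptgds, the brain's prostaglandin D synthase, differed by -0.01 ± 0.05 SE (limma adjusted p = 0.979). Rbp4, the retinol carrier, differed by -0.22 ± 0.10 SE (limma adjusted p = 0.472).

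Among megalin's partners, ligands and relatives and the relatives of Slc22a17, limma called 0, with 2 higher and 5 lower at an unadjusted p under 0.05. Over all tested probe sets, 4.71% were higher and 5.82% lower at that p. Among 6 tested partners, Lrpap1, the chaperone that escorts megalin through the cell, differed by 0.03 ± 0.04 SE and Dab2, an adaptor of its endocytosis, by -0.13 ± 0.08 SE. Cubn, which encodes megalin's co-receptor cubilin, differed by -0.12 ± 0.14 SE near the filter level. Of 10 LDL receptor family genes, Sorl1, a sorting receptor, was below all controls in the 5 tumour-bearing mice, by -0.18 ± 0.05 SE (limma adjusted p = 0.275). Of 9 genes for proteins that megalin binds, Igf1 differed by -0.34 ± 0.10 SE (limma adjusted p = 0.305), Ttr by 0.34 ± 0.41 SE and Bmp4 by -0.23 ± 0.14 SE. The metallothionein genes Mt1 and Mt2, chosen for mention after their values were seen, were the list's 2 with every tumour-bearing mouse above every control, by 0.20 ± 0.04 SE and 0.18 ± 0.04 SE (limma adjusted p = 0.207 and 0.189). They are 22.2% of the list's 9, against 3.28% of all tested probe sets. Among 10 tested relatives of Slc22a17, the organic anion transporter Slc22a8 differed by -0.41 ± 0.15 SE (limma adjusted p = 0.397), Slc22a6 by -0.36 ± 0.19 SE and Slc22a2 by -0.22 ± 0.18 SE.

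Markers of meninges and microglia also had lower values on the tumour-bearing arrays. All 6 tested meningeal markers had negative differences, with a median of -0.31. Limma called 0, with 1 lower at an unadjusted p under 0.05 (5.82% over all tested probe sets). Below all controls lay 2 of the 6 (4.17% over all tested probe sets). Their summed linear level was 648 to 1073 in tumour-bearing mice and 1025 to 1277 in controls, lowest in tumour-bearing mouse 5, which was also the lowest for Slc22a8, Slc22a6, Slc22a2, Igf1 and Bmp4. All 5 tested microglia markers had negative differences, with a median of -0.20; limma called 0, with 0 at an unadjusted p under 0.05. Their summed linear level was 390 to 508 in tumour-bearing mice and 501 to 548 in controls, again lowest in tumour-bearing mouse 5. The part of either cell type in the transporter, Igf1, Bmp4 and Slc40a1 values was not tested.

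Iron genes, of interest because lipocalin 2 carries iron on siderophores, also gave 0 limma calls among 15 tested. At an unadjusted limma p under 0.05, 3 were lower (5.82% over all tested probe sets). Slc40a1, the iron exporter ferroportin, was 4.89, 5.34, 5.28, 5.18 and 5.12 in tumour-bearing mice, against 5.64, 5.61 and 5.85 in controls. The groups did not overlap, and the difference was -0.53 ± 0.12 SE (limma adjusted p = 0.226). Trf, transferrin, was 10.13, 10.48, 10.02, 10.28 and 9.79 in tumour-bearing mice, against 10.65, 10.73 and 10.68 in controls, again without overlap, with a difference of -0.54 ± 0.13 SE (limma adjusted p = 0.246). The control pool, at 10.34, lay inside the range of the single tumour-bearing mice, and the tumour-bearing pool was at 10.11. Aco1, the cytosolic aconitase that doubles as an iron sensor, was the third without overlap and differed by -0.15 ± 0.05 SE (limma adjusted p = 0.327). Thus 3 of the 15 lay below all single controls (20.0%, against 4.17% of all tested probe sets). Tfrc, the transferrin receptor, and Slc11a2, the divalent metal transporter, both differed by 0.00, with SE of 0.07 and 0.06. Fth1, ferritin heavy chain, differed by 0.07 ± 0.04 SE.

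Transferrin is made in the brain largely by oligodendrocytes, and oligodendrocyte markers were read on the same arrays. All 6 tested had negative differences and 0 were called by limma. At an unadjusted limma p under 0.05, 4 were lower (5.82% over all tested probe sets). The summed linear level of 6 measured markers of 8 listed was 2698 to 3844 in tumour-bearing mice and 3818 to 4024 in controls, an overlap through tumour-bearing mouse 2. Their mean log2 level did not overlap, at 8.26 to 8.99 in tumour-bearing mice and 9.04 to 9.12 in controls. Opalin, a myelin membrane gene, differed by -0.95 ± 0.25 SE and Ugt8a, a myelin lipid enzyme gene, by -0.81 ± 0.19 SE (limma adjusted p = 0.276 and 0.241). Their part in the Trf and Slc40a1 values was not tested.

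Cytokines that induce Lcn2 were under the filter, and their receptor genes, though several lay apart between the groups, were not called. All 8 listed ligands, Il6, Il1a, Il1b, Tnf, Osm, Lif, Il17a and Ifng, lay under the filter level on every individual array. Il6 averaged 2.00 ± 0.11 (SD, n = 5) in tumour-bearing mice and 1.97 ± 0.11 (SD, n = 3) in controls, and Il1b averaged 3.55 ± 0.16 (SD, n = 5) in tumour-bearing mice and 3.32 ± 0.17 (SD, n = 3) in controls. Of the 8 receptor genes, every tumour-bearing mouse was above every control for 4 (3.28% over all tested probe sets). For 2, every tumour-bearing mouse was below every control (4.17% over all tested probe sets). Limma called 0. It gave 4 higher and 1 lower at an unadjusted p under 0.05, against 4.71% and 5.82% of all tested probe sets.

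Il1r1, the interleukin 1 receptor, came nearest: 7.04, 6.76, 6.70, 6.64 and 6.27 in tumour-bearing mice 1 to 5, against 5.62, 5.66 and 5.72 in controls. The groups lay apart, with a difference of 1.01 ± 0.14 SE (limma adjusted p = 0.0597, and 0.00449 to 0.467 over the alternatives, 4 of 21 of which called it). Osmr, the oncostatin M receptor, was 6.74, 6.56, 6.94, 6.62 and 6.57 in tumour-bearing mice, against 5.94, 6.01 and 6.13 in controls. Its groups did not overlap either, and the difference was 0.66 ± 0.10 SE (limma adjusted p = 0.0654, and 0.00779 to 0.535 over the alternatives). Il6ra and Il17ra differed by 0.21 ± 0.07 SE and 0.26 ± 0.10 SE, and Il1rap and Il6st by -0.24 ± 0.07 SE and -0.07 ± 0.04 SE. For Il1rap the control pool, at 7.35, lay below every single tumour-bearing mouse, and the tumour-bearing pool was at 7.30.

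Of the transcription regulators known to act on Lcn2, 7 were tested; limma called 0, and 0 had an unadjusted p under 0.05. Nfkbia, an inhibitor and target of NF-kB, was above all single controls in the 5 tumour-bearing mice, by 0.23 ± 0.11 SE (limma adjusted p = 0.505). The control pool, at 7.50, lay inside the range of the single tumour-bearing mice, and the tumour-bearing pool was at 7.75. Stat3 differed by 0.03 ± 0.06 SE (limma adjusted p = 0.907). Cebpd did not pass the filter; it was 4.37, 4.14, 4.31, 3.64 and 4.29 in tumour-bearing mice, against 3.81, 3.72 and 3.66 in controls, and the groups overlapped through mouse 4.

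Among acute-phase genes, 6 of 17 measured passed the filter, and all 6 had positive differences. Limma called 2 higher, against 0.0569% of all tested probe sets. It gave 4 higher at an unadjusted p under 0.05 (4.71% over all tested probe sets). Every tumour-bearing mouse exceeded every control for 3 (3.28% over all tested probe sets). The other 11, Saa3 and Hp among them, lay under the level on all 8 individual arrays. Lrg1, which encodes a secreted leucine-rich glycoprotein, was 6.33, 6.01, 6.27, 6.26 and 5.88 in tumour-bearing mice 1 to 5, against 4.21, 4.56 and 4.76 in controls. The gap between the groups exceeded 1 log2 unit, and the difference was 1.64 ± 0.15 SE, or 3.12-fold (limma adjusted p = 0.00855). With control 1, the one single-mouse array below the filter level, set to that level, the fold was 3.04. Lrg1 was 6.27 in the tumour-bearing pool and 3.97 in the control pool, which also lay under the level. Serpina3n, a protease inhibitor gene of reactive astrocytes, was 9.68, 9.65, 9.81, 9.69 and 9.72 in tumour-bearing mice, against 9.39, 9.38 and 9.33 in controls. Among these single mice it rose by 0.35 ± 0.04 SE (limma adjusted p = 0.0308). It was 10.06 in the tumour-bearing pool and 9.79 in the control pool. The control pool thus lay inside the range of the single tumour-bearing mice.

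These calls depended on single mice and on the processing. Lrg1 was called in 17 of 20 alternatives; its adjusted p by limma was 0.0573 when control 2 was left out and 0.154 when mice 3 and 4 were. Serpina3n was called in 10 of 21. Its adjusted p by limma was 0.0761 with control 1 left out, 0.140 with control 2 left out and 0.182 with control 3 left out. It was 0.0687 to 0.115 with tumour-bearing mouse 1, 4 or 5 left out, 0.154 with both mice 3 and 4 left out, 0.427 with the pools counted as samples, 0.0571 with no filter and 0.120 without the intensity trend. Over all alternatives the differences stayed at 1.49 to 1.80 for Lrg1 and at 0.30 to 0.36 for Serpina3n. Lbp, lipopolysaccharide-binding protein, differed by 0.46 ± 0.13 SE, with all 5 tumour-bearing mice above the controls (limma adjusted p = 0.299), and A2m, a broad protease inhibitor, by 0.29 ± 0.10 SE (limma adjusted p = 0.372).

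The mice did not keep one order over these genes. Lcn2 was highest in tumour-bearing mouse 3 and lowest in mouse 2, Lrg1 highest in mouse 1 and lowest in mouse 5, and Il1r1 highest in mouse 1 and lowest in mouse 5. Serpina3n and Osmr, like Lcn2, were highest in mouse 3 and lowest in mouse 2. Over the 1701 probe sets whose groups did not overlap (7.45% of those tested), mouse 2 lay nearest the control mean for 33.9% and mouse 5 lay farthest for 33.9%. Lcn2 followed that pattern at its low end, in mouse 2, but mouse 5 was the second lowest for it.

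**Figure D3:**
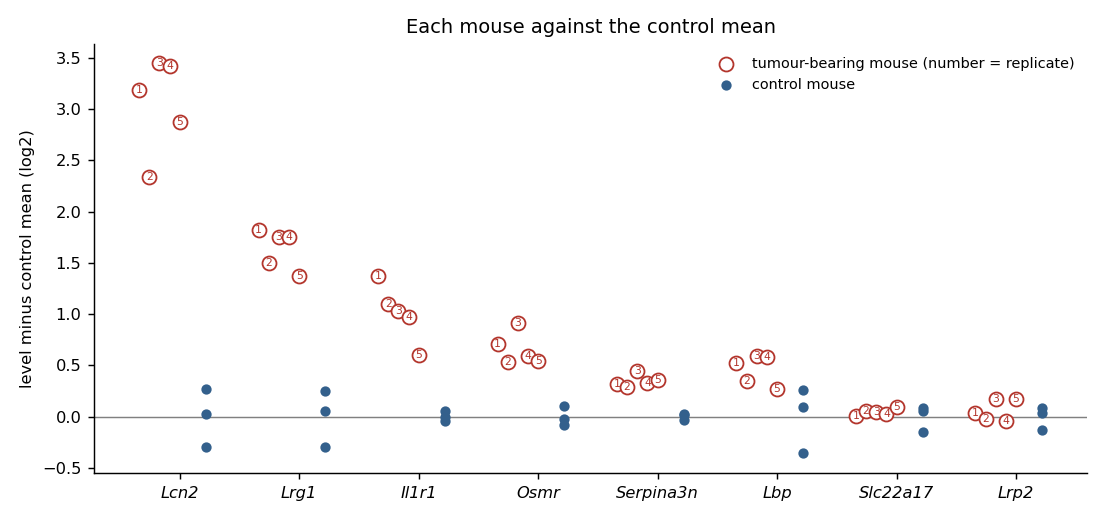
Log2 level of each mouse minus the mean of the 3 controls for Lcn2, 5 genes of the inducing-signal and acute-phase lists, and both receptor genes; numbered circles are tumour-bearing mice 1 to 5 and filled points controls. For Lcn2, Lrg1, Il1r1, Osmr, Serpina3n and Lbp every tumour-bearing mouse lies above every control, and for Slc22a17 and Lrp2 the groups overlap.

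Cells other than those of the hypothalamus can carry Lcn2, and their markers were read on the same arrays. Of 11 measured neutrophil markers of 12 listed, 10 lay under the filter level on every individual array, including S100a8, S100a9, Camp, Ltf, Mpo and Elane. Their summed linear level, with Csf3r, was 136 to 145 in tumour-bearing mice and 119 to 130 in controls, without overlap. Ngp, a neutrophil granule gene, averaged 3.43 ± 0.18 (SD, n = 5) in tumour-bearing mice and 2.93 ± 0.03 (SD, n = 3) in controls, under the level in both. Csf3r, the one marker tested, differed by 0.14 ± 0.11 SE (limma adjusted p = 0.700). The part of neutrophils in the Lcn2 level was not tested.

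Of 6 listed red cell markers 2 were measured, and limma called 0. It gave 1 higher at an unadjusted p under 0.05 (4.71% over all tested probe sets). Alas2, the heme synthesis enzyme of red cell precursors, was 6.02, 5.89, 7.77, 6.43 and 5.62 in tumour-bearing mice, against 5.21, 5.02 and 4.59 in controls. The groups did not overlap, and the difference was 1.41 ± 0.42 SE (limma adjusted p = 0.306). The summed level with Slc4a1 was 65.4 to 281 in tumour-bearing mice and 36.4 to 50.1 in controls, highest in mouse 3, the mouse with the most Lcn2. The part of blood in the Lcn2 level was not tested.

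The pituitary markers were high in mice 3 and 4, which were also the highest for Lcn2. Their summed linear level was 184 to 1908 in tumour-bearing mice and 133 to 285 in controls, from 6 measured markers of 7 listed. On that sum, mice 1, 2 and 5 lay inside the control range. On the mean log2 level, mice 2 and 5, at 4.47 and 4.51, lay above the highest control, at 4.35. Gh, given above, was also higher in mice 1, 2 and 5 than in any single control. The sum was 1286 in the tumour-bearing pool and 307 in the control pool. Without mice 3 and 4 the Lcn2 difference was 2.80 in place of 3.05, and the other 3 tumour-bearing mice still lay above all controls. The Slc22a17 and Lrp2 differences without them were 0.05 and 0.06.

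Of 10 tested reactive astrocyte markers, 1 was called higher by limma, Serpina3n (0.0569% over all tested probe sets), while 7 had negative differences. At an unadjusted limma p under 0.05, 2 were higher, Serpina3n and Osmr, and 0 lower, against 4.71% and 5.82% of all tested probe sets. For these 2, every tumour-bearing mouse was above every control (20.0%, against 3.28% of all tested probe sets). Gfap, chosen for mention after its value was seen, differed by -0.02 ± 0.14 SE. Endothelial markers, 8 tested, had differences of -0.26 to 0.14 and 0 limma calls. Of these, 1 was lower at an unadjusted limma p under 0.05 (5.82% over all tested probe sets). Choroid plexus markers, 6 tested, had differences of -0.44 to 0.34, 0 limma calls and 0 at an unadjusted limma p under 0.05. Astrocyte markers, 7 tested, tanycyte markers, 6 tested, and neuron markers, 6 tested, had medians of -0.01, 0.03 and -0.00185 and 0 limma calls. Limma gave 1 astrocyte marker higher and 1 lower at an unadjusted p under 0.05 (4.71% and 5.82% over all tested probe sets). Of the tanycyte and neuron markers it gave 0. Slc1a3 differed by 0.13 ± 0.04 SE. Aqp4 was below all controls in every tumour-bearing mouse (4.17% over all tested probe sets), by -0.51 ± 0.11 SE (limma adjusted p = 0.219). Ependymal markers had positive differences in 7 of 7 tested, with a median of 0.23 and 0 limma calls. At an unadjusted limma p under 0.05, 2 of them were higher (4.71% over all tested probe sets). Of the 11 hypothalamic markers, 9 had positive and 2 negative differences, with 0 limma calls. Limma gave 5 higher and 0 lower at an unadjusted p under 0.05, against 4.71% and 5.82% of all tested probe sets. Every tumour-bearing mouse exceeded every control for 4 (3.28% over all tested probe sets). Largest among the 11 were the neuropeptide genes Npy, at 0.84 ± 0.23 SE, Oxt, at 0.66 ± 0.18 SE, and Avp, at 0.50 ± 0.07 SE (limma adjusted p = 0.284, 0.277 and 0.0597).

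**Figure D4:**
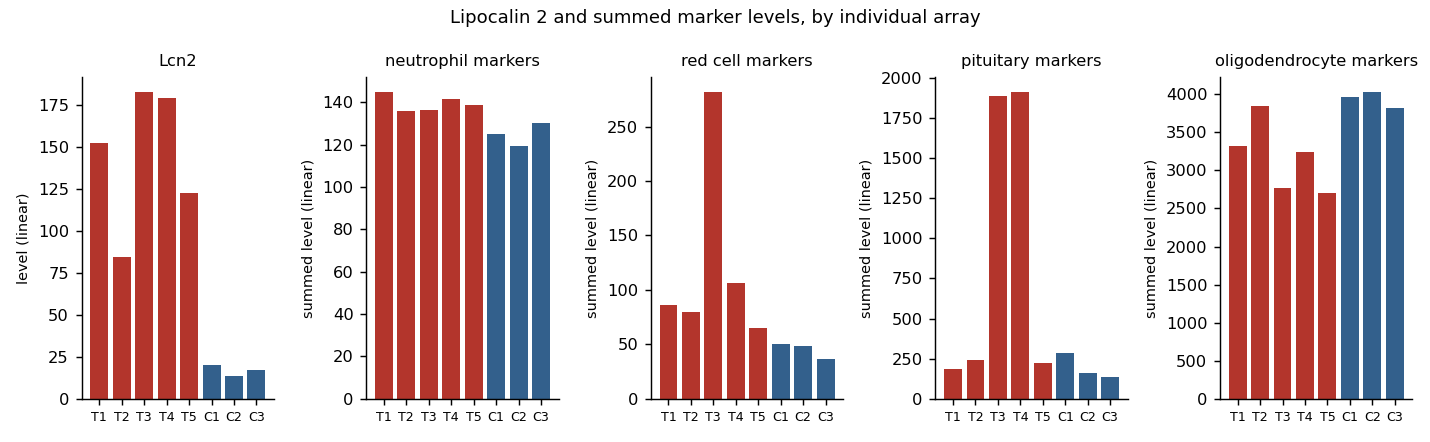
Linear level of Lcn2 and summed linear level of neutrophil, red cell, pituitary and oligodendrocyte markers on each individual array (T1 to T5 tumour-bearing, C1 to C3 control). Lcn2 is 84.4 to 182 in tumour-bearing mice and 13.6 to 20.1 in controls; red cell markers peak in T3, and pituitary markers in T3 and T4.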

How the data were processed

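Hypothalamus RNA was hybridised to 1-colour whole-transcript arrays, 10 in all. The authors deposited levels from RMA, the tool that the submitters' processing notes name; its version and probe set definition are not given in the sources used here. The log2 scale of the deposited values was inferred from their range. The table held 35556 probe sets, of which a platform annotation paired 21218 with 1 gene, 1881 with several and 12457 with none; updating symbols through RefSeq of GRCm38.p6 changed 0. No control probes were marked.

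Differences were fitted with limma 3.58.1 in R 4.3.3 (lmFit, eBayes with intensity trend) on 5 tumour-bearing and 3 control arrays, and p-values were adjusted by Benjamini-Hochberg over the 22837 that passed the filter; the threshold was 0.05. Relations used exact two-sided permutation over 8 arrays, adjusted over 4 relations. The number of arrays limits precision.

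The members, the 10 pathway lists and the 14 marker lists were chosen with earlier results of these data known. The text names the 3 members, any gene of 8 lists (partners of lipocalin 2 and of megalin, inducing signals, transcription regulators, lipocalins, iron, acute-phase and neutrophil genes), the called genes or the 3 largest differences of other lists, and the 5 genes most like each member. Alternatives were the filter, raising low values, the variance model, array weights, normalization, the replicate block, pools as samples, averaged probe sets and leaving out each mouse; 2 were added after seeing the data. Figures were drawn with matplotlib 3.10.9.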

Additional observations from a re-analysis of the deposited data

Results flagged for a closer look

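In 6 of 55 members and list genes named in the report, 1 tumour-bearing mouse stood apart from the other 4 by more of the group's range than a test for outlying values allows; chance gives about 1 such value in 20 groups. Slc4a1, a red cell membrane gene, was 5.96 in mouse 3, against 4.02 to 4.43 in the other 4. Ngp, a neutrophil granule gene, was lowest in the same mouse, at 3.11 against 3.47 to 3.57, all under the filter level. Il1b was 3.82 in mouse 1, against 3.43 to 3.51, also under the level. Mouse 5 was the lowest for Sorl1, at 8.68 against 8.81 to 8.85, for Ptgds, at 11.92 against 12.03 to 12.08, and for Bcl2l11, at 4.60 against 4.76 to 4.82. None of the 3 members stood out in this way.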

How the results depend on the processing

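The Lcn2 difference kept its direction and stayed within the spread between mice in all 20 alternatives that gave a value. That count is no support for the difference, for which the gene was chosen. Its groups do not overlap, so leaving out mice cannot reverse it, and the filter and variance model do not enter its value. The stricter filter removes Lcn2, since controls lie under the level. Leaving out each mouse gave 2.90 to 3.23 for Lcn2, -0.028 to 0.088 for Slc22a17 (-0.028 without control 1) and -1.31e-05 to 0.11 for Lrp2 (-1.31e-05 without control 2), and neither receptor was called in any of 21 alternatives. Of the 77 pathway genes 2 were called in the main test, 0 (without control 2) to 3 with each mouse left out, 4 with array weights, 1 with no filter, 1 without the intensity trend, 1 with the stricter filter and 0 with the replicate number as a block. All tested probe sets gave 13 calls, 2 (without control 2 or 3) to 69 (without tumour-bearing mouse 2) with each mouse left out, 24 with array weights, 5 with no filter, 4 without the trend and 0 with the replicate block. Chosen after seeing the data, testing only probe sets with 1 gene gave 4 pathway calls and 72 in all, and leaving out mice 3 and 4 gave 0 and 0. Same-numbered mice did not deviate together (correlations -0.00199 to 0.00891). So few pairs cannot show whether the numbers pair mice, and tumour-bearing mice 4 and 5 have no same-numbered control. The block took the Slc22a17 difference to 0.03 and changed no receptor's call. It gave Lrg1 and Serpina3n adjusted p of 0.467 and 0.631 by limma. Without the 2 arrays farthest from the marker median, r was -0.622 for Lrp2 with choroid plexus markers, a reversal, and 0.374 for Slc22a17 with neuron markers, where the unadjusted call was lost. Apart from calls lost by leaving out arrays or testing more probe sets, the cause was not tested. Signal near the filter level limits the size of the Lcn2 fold, since 2 of 3 controls lie under it.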
